A study of Homo sapiens with 8 samples.

Results

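The nuclear genes for subunits of the mitochondrial respiratory chain and ATP synthase were followed across cell line and vector. The members were the genes whose symbol begins with NDUFA, NDUFB, NDUFC, NDUFS or NDUFV and a digit, is SDHA, SDHB, SDHC, SDHD or CYC1, or begins with UQCR, COX4 to COX8 or ATP5, and antisense and divergent transcripts were left out. This rule, which used no measured value, found 82 of the 13771 genes in the table. They were 7 core and 29 accessory subunit genes of complex I, 4 of complex II, 10 of complex III, 13 of complex IV, 18 of complex V, and NDUFA4L2, a paralog of the complex IV subunit NDUFA4. One of the complex III genes, UQCRBP1, is a pseudogene of UQCRB, so its reads and those of UQCRB are uncertain.

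RNA sequencing had been run on MCF10A, an immortalized non-tumorigenic breast epithelial line, and on DCIS.COM, a line of the same MCF10 lineage used as a model of ductal carcinoma in situ. Each line was stably transduced with the lentiviral vector pCDH carrying the long noncoding RNA HOTAIR or with the same vector empty, and all cells were selected with puromycin. The 4 groups had 2 libraries each. MCF10A was grown with epidermal growth factor, hydrocortisone, insulin and cholera toxin, and DCIS.COM in the same base medium and horse serum without them, so that line and medium cannot be told apart. Nothing stated that the libraries of a group came from separate cultures, so the p-values measure only the spread between these libraries.

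Complex I passes electrons from NADH, and complex II from succinate, to ubiquinone, complex III hands them to cytochrome c, and complex IV to oxygen. Complexes I, III and IV pump protons across the inner mitochondrial membrane, and complex V, the ATP synthase, uses the return flow to make ATP. Except for complex II, each complex joins subunits encoded in the nucleus with others encoded in mitochondrial DNA. The transcription factors NRF1 and GABP are known to bind the promoters of many of these nuclear genes, and PPARGC1A is a coactivator of the same program.

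The letters bound by NRF1 and GABP were looked for in the 250 bases before each start site in RefSeq (GRCh38.p14), on both strands. The letters of YY1 and of the estrogen-related receptors, and the letters CCAAT, were looked for in the same way. A start site window was listed for 66 of the 82 members. The NRF1 letters GCGCATGCG were present for 10 of the 66 members (15.2%), compared with 3.64% of the genes in the table that had a window and 2.02% of all genes with a window. The GABP letters CCGGAAG were present for 18 of the 66 (27.3%), against 18.7% of the genes in the table and 10.2% of all genes. CCAAT was present for 34.8% of the members and 41.9% of the genes in the table. The letters of YY1, AAGATGGCG, were found for 1 member, and those of the estrogen-related receptors, TCAAGGTCA, for 0 of the 66, where 0.388% of all genes held them. A match describes these letters in this window and is not a binding site. Printed below are windows of COX6B1, COX6A1 and the members with a window that rose most in DCIS.COM in each vector, SDHB and ATP5MC1. They run 5′ to 3′ up to the base before the start site. Matches to the NRF1, GABP and CCAAT letters on either strand are in capitals.
SDHB (chr1:17054033-17054282, minus strand): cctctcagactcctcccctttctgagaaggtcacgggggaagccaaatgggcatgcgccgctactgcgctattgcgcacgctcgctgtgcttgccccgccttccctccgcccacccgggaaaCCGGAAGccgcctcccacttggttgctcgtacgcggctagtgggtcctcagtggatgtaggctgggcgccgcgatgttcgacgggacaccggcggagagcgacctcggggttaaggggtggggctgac
ATP5MC1 (chr17:48892537-48892786, plus strand): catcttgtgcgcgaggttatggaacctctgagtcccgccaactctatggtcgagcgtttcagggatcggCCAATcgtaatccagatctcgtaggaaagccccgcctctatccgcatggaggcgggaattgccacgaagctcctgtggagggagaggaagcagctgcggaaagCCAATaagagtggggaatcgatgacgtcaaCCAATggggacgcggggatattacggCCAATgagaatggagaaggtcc
COX6B1 (chr19:35648073-35648322, plus strand): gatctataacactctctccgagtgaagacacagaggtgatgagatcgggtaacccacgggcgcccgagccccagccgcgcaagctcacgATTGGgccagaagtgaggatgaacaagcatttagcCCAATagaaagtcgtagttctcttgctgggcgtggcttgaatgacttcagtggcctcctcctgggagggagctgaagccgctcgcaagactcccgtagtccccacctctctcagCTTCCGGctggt
COX6A1 (chr12:120437863-120438112, plus strand): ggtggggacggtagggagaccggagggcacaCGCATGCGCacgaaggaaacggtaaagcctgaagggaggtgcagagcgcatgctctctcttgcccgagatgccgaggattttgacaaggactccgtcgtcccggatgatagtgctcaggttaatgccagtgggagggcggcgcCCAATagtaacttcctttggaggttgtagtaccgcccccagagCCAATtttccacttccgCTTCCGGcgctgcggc
SDHB held the GABP letters and ATP5MC1 held CCAAT 4 times, at bases -181, -78, -48 and -22 from the start. COX6B1 held the GABP letters 12 bases before the start, and COX6A1, the complex IV gene with the highest level per length, held the NRF1, GABP and CCAAT letters.

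Whole reads recovered from the deposited values summed to between 19306864 and 34884841 per library. Reads of HOTAIR numbered 40 to 140 in the 4 empty-vector libraries and 4614 to 7166 in the 4 pCDH-HOTAIR libraries, so each library matched the vector its label named. All 8 epithelial markers examined were in the table, with KRT5 at 18065 to 131508 reads. Of the leukocyte, endothelial and fibroblast markers, PTPRC, CD3E, CDH5, VWF, PDGFRB, DCN and LUM were not in the table, CD14 had 20 to 739 reads and PECAM1 34 to 423. One library stood apart: in DCIS.COM pCDH-empty 1, 18 members lay more than 0.2 below the mean of the other DCIS.COM libraries on the log2 CPM scale and 15 more than 0.2 above it, where 4045 and 3475 of all genes did. At 0.5 these were 6 and 1 members and 1533 and 564 of all genes.

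The members were well expressed in both lines. The median member had a log2 CPM (CPM, a read count scaled to library size) of 6.17 to 6.20 in the MCF10A libraries and of 6.38 to 6.39 in the DCIS.COM libraries, while the median over all genes was 4.34 to 4.40. Together the members took 0.740% to 0.758% of the reads in MCF10A and 0.813% to 0.888% in DCIS.COM, the ranges not overlapping. The genes RN7SL1 and RN7SL2 took 11.1% to 18.9% of the reads, most in DCIS.COM pCDH-empty 1, and their part in these shares was not tested. In bulk RNA, fewer cells with a transcript and less RNA per cell cannot be told apart.

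To compare members with each other, reads were divided by transcript length (RPKM, with the median length of each gene's basic GENCODE transcripts, and so approximate) and averaged over the 8 libraries. The highest level per length was that of ATP5F1B, the catalytic beta subunit of ATP synthase, at 395 RPKM. In complex IV the range ran from 297 for COX6A1 down to 0.946 for COX6B2, the testis-enriched form of COX6B1. Within complex III it ran from 263 for UQCRH to 5.25 for the pseudogene UQCRBP1, and within complex I from 223 for NDUFS5 to 7.15 for NDUFV3, both accessory subunits. Complex II was the most even, from 62.0 for SDHA to 139 for SDHC. ATP5F1D, the delta subunit, was the lowest gene of complex V at 59.2. The summed level per length was higher in each DCIS.COM library than in any MCF10A library for each of the complexes I to V. The ratio of the mean sums, DCIS.COM to MCF10A, was 1.08 for the complex I core, 1.06 for its accessory subunits, 1.30 for complex II, 1.13 for complex III, 1.22 for complex IV and 1.13 for complex V.

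The comparison of DCIS.COM with MCF10A was made within each vector. More subunit genes were higher in DCIS.COM than lower, and the changes were small apart from a few genes. In the empty-vector cells 32 of 82 members rose and 9 fell at an adjusted p under 0.05 (limma, Benjamini-Hochberg), while 33.8% of all genes rose and 34.4% fell. In the pCDH-HOTAIR cells 38 members rose and 12 fell, against 32.8% and 32.7% of all genes. The members that rose made up 39.0% and 46.3% of the 82, above the share of all genes, and fewer fell than among all genes. For the empty vector the higher share that rose did not hold in every setting. When only those 2 groups were fitted, 24.4% of members rose against 28.8% of all genes, and 6.1% fell against 29.1%. With a replicate block within cell line, 24 of 82 rose and 8 fell, against 4071 and 4283 of the 13771 genes. Without MCF10A pCDH-empty 1 or 2 the share that rose was also near that of all genes. Without DCIS.COM pCDH-empty 1, 41 rose and 12 fell in the empty-vector cells, against 36.1% and 35.9% of all genes. Without DCIS.COM pCDH-empty 2, 41 rose and 19 fell, against 36.9% and 39.7% of all genes. In the pCDH-HOTAIR cells, where 50 members passed in all, 62 were higher in DCIS.COM by any amount. With 1 pCDH-HOTAIR library of either line left out, 60 to 62 were higher. Fewer members and fewer of all genes passed in those fits, and the share of members that rose lay nearer to that of all genes. The median log2 fold change of the members was 0.12 in the empty-vector cells and 0.19 in the pCDH-HOTAIR cells, with a median over all genes of -0.0001 and 0.0035. At 1.5-fold or more, 7 members rose and 2 fell in the empty-vector cells, where 22.5% of all genes rose and 23.8% fell. In the pCDH-HOTAIR cells 7 rose and 1 fell, where 22.0% and 21.7% of all genes did. Counted by libraries, in the empty-vector cells 42 members had both DCIS.COM libraries above both MCF10A libraries and 21 below (40.7% and 40.9% of all genes), and in the pCDH-HOTAIR cells 55 and 18 (44.8% and 44.3%).

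Of the members, 29 rose in both vectors and 8 fell in both, and no member rose in one and fell in the other. How many of all genes did so was not counted, so these counts have no share to be set against. By complex, in the empty-vector cells, 3 of the 7 core genes of complex I rose and none fell, 10 of the 29 accessory genes rose and 3 fell, 2 of 4 rose in complex II, 4 of 10 rose and 2 fell in complex III, 6 of 13 rose and 1 fell in complex IV, and 6 of 18 rose and 3 fell in complex V. The shares that rose in the accessory genes of complex I and in complex V were near the 33.8% of all genes in these cells. With pCDH-HOTAIR 2 of the 7 core genes rose and 1 fell, and 10 of the 29 accessory genes rose and 4 fell. In complex II 2 of 4 rose, in complex III 5 of 10 rose and 2 fell, and in complex IV 9 of 13 rose and 1 fell. In complex V 9 of 18 rose and 4 fell, where 32.8% of all genes rose and 32.7% fell. Correcting the values for transcript length made the split more one-sided, with 46 members higher and 4 lower in the empty-vector cells and 45 higher and 3 lower in the pCDH-HOTAIR cells, where 36.8% and 33.0% of all genes rose and fell in the former and 35.0% and 32.2% in the latter. The members are short, with a median transcript length of 690 bases against 2631 over all genes.

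**Figure D1:**
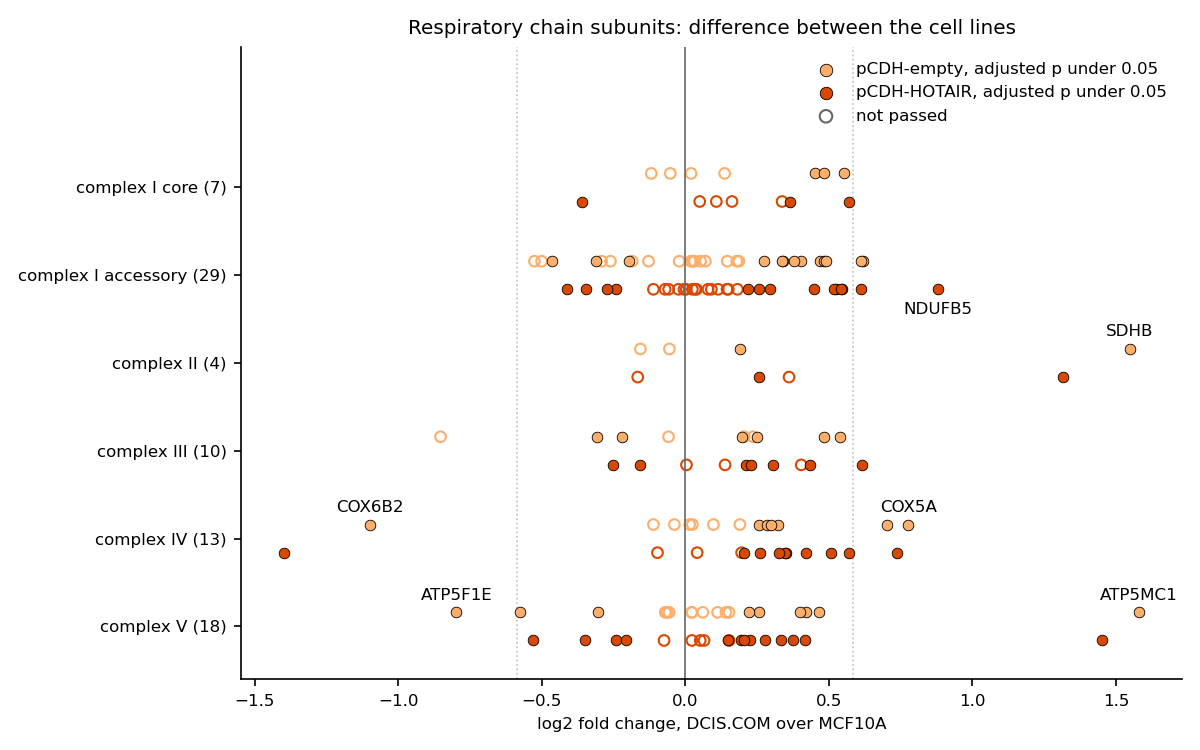
Log2 fold change of each subunit gene, DCIS.COM over MCF10A, by complex (number of genes in parentheses), for the empty vector and the HOTAIR vector. Filled points had an adjusted p under 0.05 (limma), dotted lines mark 1.5-fold, and most points lie between them. NDUFA4L2, at 6.20 and 6.33, lies outside the axis and is not drawn.

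NDUFA4L2 differed most. Its product is related to NDUFA4, and it is known as a target of the hypoxia-inducible factor HIF1A. In MCF10A its reads numbered 7 and 2 with the empty vector and 5 and 2 with pCDH-HOTAIR, and they numbered 478, 395, 665 and 657 in the DCIS.COM libraries in the same order. Every DCIS.COM library was far above every MCF10A library. All genes in the table had a CPM over 0.5 in at least 2 libraries, and NDUFA4L2 reached this only in DCIS.COM. Its place in the table thus rested on the line where it was high, and its p-values are no separate support. Scaled to library size, the summed reads were 98.6 times as high in DCIS.COM in the empty-vector cells (95% exact binomial interval 51.7 to 216, counting error only) and 108 times as high in the pCDH-HOTAIR cells (52.1 to 268). The fitted log2 fold changes of 6.20 and 6.33 (adjusted p = 2.45e-06 and 2.25e-06, limma) depend on the prior count at such low reads and ranged from 3.83 to 6.71 over the alternatives in the empty-vector cells. The gene lies on the minus strand of chromosome 12 from 57628686 to 57634498 (GRCh37) and its exons overlap those of SHMT2 on the other strand. Whether the counting used strand was not stated. NDUFA4 itself had a log2 CPM of 6.35, 6.32, 6.18 and 6.26 in MCF10A and of 6.39, 6.66, 6.75 and 6.70 in DCIS.COM. It rose in the pCDH-HOTAIR cells (log2 fold change 0.51 ± 0.092 SE, adjusted p = 0.00146, limma) and differed by 0.19 in the empty-vector cells (adjusted p = 0.0986, limma), or by 0.32 without DCIS.COM pCDH-empty 1, where it passed.

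In complex II, which has 4 subunits, only SDHB moved by more than 1.5-fold. SDHB carries the iron-sulfur clusters that pass electrons from the flavoprotein SDHA to the membrane anchors SDHC and SDHD. Its log2 CPM was 5.35, 5.24, 5.30 and 5.29 in the MCF10A libraries and 6.98, 6.70, 6.60 and 6.63 in the DCIS.COM libraries, with no overlap. SDHB was 2.93-fold higher in DCIS.COM with the empty vector (log2 fold change 1.55 ± 0.095 SE, adjusted p = 2.53e-06, limma) and 2.49-fold higher with pCDH-HOTAIR (1.32 ± 0.095, adjusted p = 6.71e-06, limma). Without DCIS.COM pCDH-empty 1 the first log2 fold change was 1.41. SDHA lay at 7.08 to 7.13 in MCF10A and at 6.95 to 7.12 in DCIS.COM, overlapping, with log2 fold changes of -0.06 (95% interval -0.21 to 0.10) and -0.17 (-0.32 to -0.01) that did not pass. Leaving out DCIS.COM pCDH-empty 1, the first was -0.13 and passed (adjusted p = 0.016, limma). For SDHC the log2 fold change was 0.19 with the empty vector (adjusted p = 0.0489, limma) and 0.26 with pCDH-HOTAIR (adjusted p = 0.0149, limma). The first of these calls was lost without any one of 7 libraries, with values from 0.12 to 0.22, and was kept at 0.26 without DCIS.COM pCDH-empty 1. The second was lost without MCF10A pCDH-HOTAIR 1 (0.22) and without DCIS.COM pCDH-HOTAIR 1 (0.24) or 2 (0.28). SDHD depended on 1 library: its log2 CPM was 5.53 and 6.21 in DCIS.COM pCDH-empty and 6.15 and 6.22 in DCIS.COM pCDH-HOTAIR, against 5.80 to 6.07 in MCF10A. Its log2 fold change in the empty-vector cells was -0.16 (adjusted p = 0.471, limma) with all libraries, 0.18 (adjusted p = 0.0188, limma) without DCIS.COM pCDH-empty 1 and -0.50 without DCIS.COM pCDH-empty 2.

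The c-ring of ATP synthase gave a similar contrast between related genes. ATP5MC1, ATP5MC2 and ATP5MC3 encode precursors with different import sequences that yield the same mature subunit c. ATP5MC1 had a log2 CPM of 5.57, 5.53, 5.41 and 5.45 in MCF10A and of 7.26, 7.00, 6.88 and 6.88 in DCIS.COM. It was 2.99-fold higher in DCIS.COM with the empty vector (log2 fold change 1.58 ± 0.088 SE, adjusted p = 1.42e-06, limma) and 2.73-fold higher with pCDH-HOTAIR (1.45 ± 0.088, adjusted p = 2.36e-06, limma). Without DCIS.COM pCDH-empty 1 the first log2 fold change was 1.45. ATP5MC3 rose less, with log2 fold changes of 0.47 (adjusted p = 0.000547, limma) and 0.42 (adjusted p = 0.00108, limma). ATP5MC2 lay at 6.69 to 6.76 in MCF10A and 6.62 to 6.68 in DCIS.COM, with log2 fold changes of -0.06 (95% interval -0.19 to 0.08) and -0.07 (-0.21 to 0.06). Thus ATP5MC1, with the lowest log2 CPM of the c-ring genes in MCF10A, was above ATP5MC2 in each DCIS.COM library.

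**Figure D2:**
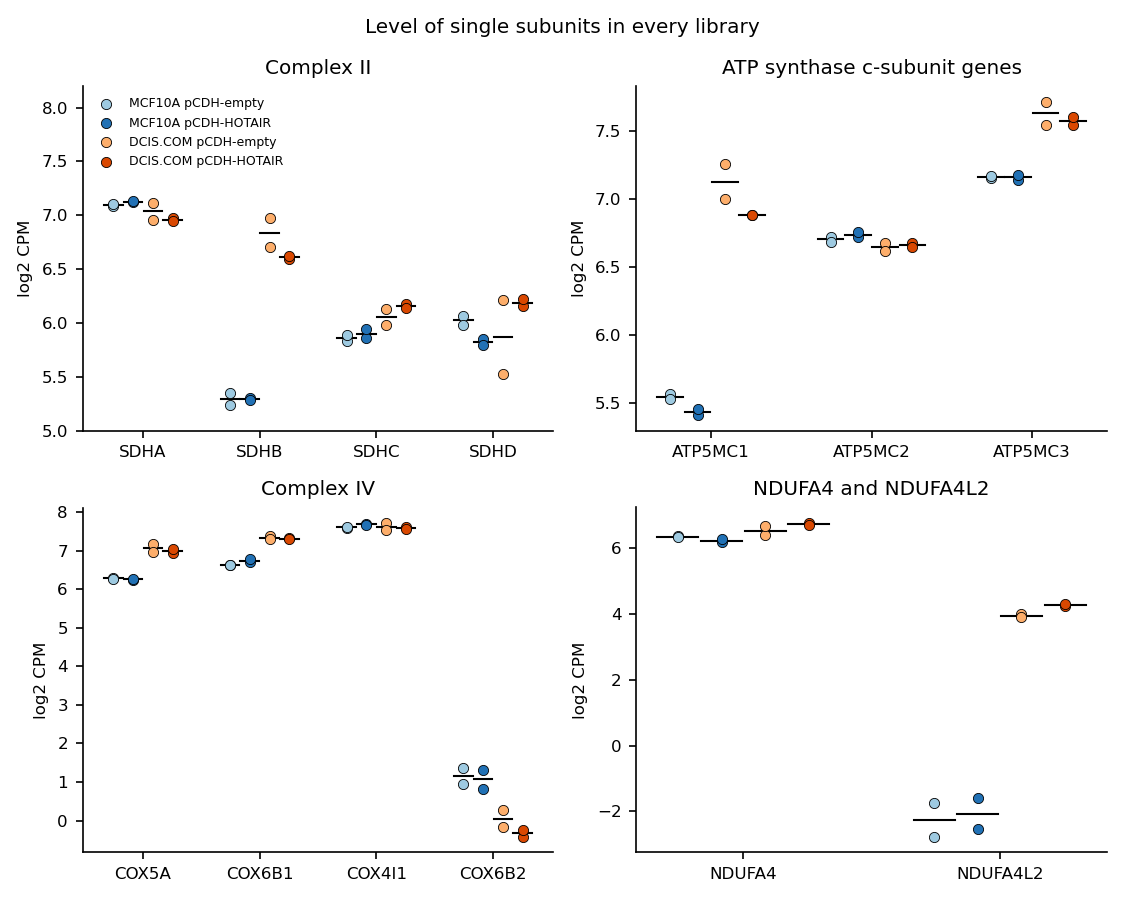
Log2 CPM of single subunit genes in every library, with points for libraries, colours for the 4 groups and bars for the means of 2 libraries. SDHB, ATP5MC1, COX5A, COX6B1 and NDUFA4L2 are higher in each DCIS.COM library than in any MCF10A library, and COX6B2 is lower, while SDHA, COX4I1 and ATP5MC2 stay within a narrow range.

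In complex IV, COX5A and COX6B1 rose and COX6B2 fell. COX5A, a nuclear subunit near the catalytic core, had a log2 CPM of 6.24 to 6.29 in MCF10A and 6.95 to 7.16 in DCIS.COM, and was 1.71-fold higher with the empty vector (adjusted p = 4.93e-05, limma) and 1.67-fold higher with pCDH-HOTAIR (adjusted p = 6.85e-05, limma). COX6B1, which faces the intermembrane space, had 6.63 to 6.77 in MCF10A and 7.29 to 7.38 in DCIS.COM, a 1.63-fold (adjusted p = 2e-05, limma) and a 1.48-fold rise (adjusted p = 7.27e-05, limma). The COX6B2 transcript was scarce, with 58, 66, 33 and 48 reads in MCF10A and 34, 22, 24 and 26 in DCIS.COM. Its log2 CPM was nevertheless lower in each DCIS.COM library, and it fell by 1.10 (adjusted p = 0.00519, limma) and by 1.40 (adjusted p = 0.00152, limma) on the log2 scale. COX4I1 and COX5B had log2 fold changes between -0.10 and 0.04 and did not pass. COX7A2L, which joins complexes III and IV into supercomplexes, rose by 0.29 and 0.35 (adjusted p = 0.00377 and 0.00131, limma).

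Complex I changes were modest. Among the core genes, NDUFS3 rose by 0.45 and 0.37 on the log2 scale (adjusted p = 0.0015 and 0.00484, limma). NDUFS7 rose in the empty-vector cells (0.48, adjusted p = 0.0143, limma, 0.25 without DCIS.COM pCDH-empty 1, and 0.42 and not passed without MCF10A pCDH-empty 2), where DCIS.COM pCDH-empty 1 lay at 5.72 and the rest of that line at 5.25 to 5.33. NDUFV1, NDUFV2 and NDUFS1 had log2 fold changes from -0.12 to 0.16 and did not pass in either vector. NDUFS8 fell in the pCDH-HOTAIR cells (-0.36, adjusted p = 0.0221, limma), a call lost without any one of 3 libraries: the value was -0.40 without MCF10A pCDH-HOTAIR 1, -0.32 without MCF10A pCDH-HOTAIR 2 and -0.30 without DCIS.COM pCDH-HOTAIR 1. Of the accessory genes, NDUFB5 had the largest rise among those that passed with pCDH-HOTAIR (0.88, adjusted p = 0.000654, limma). It rose by 0.48 with the empty vector, where DCIS.COM pCDH-empty 1 had 5.92 and the remaining DCIS.COM libraries 6.40 to 6.45, and by 0.72 without that library. NDUFB2 fell by 0.47 and by 0.41 on the log2 scale (adjusted p = 0.000916 and 0.00189, limma), and NDUFA12 fell by 0.31 and by 0.35 (adjusted p = 0.0155 and 0.0101, limma). NDUFA12 did not pass in the empty-vector cells after length correction (-0.10) or without either MCF10A pCDH-empty library (-0.30 without the first and -0.32 without the second).

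In complex III, UQCRFS1, the Rieske iron-sulfur protein, rose by 0.48 and 0.43 (adjusted p = 0.00041 and 0.000783, limma), and UQCRC2, a core protein, by 0.20 and 0.23 (adjusted p = 0.015 and 0.00752, limma). UQCRC2 did not pass with the empty vector without MCF10A pCDH-empty 1 or 2, nor with pCDH-HOTAIR without the first pCDH-HOTAIR library of either line, at values from 0.20 to 0.21. The pseudogene UQCRBP1 had 70, 62, 25 and 32 reads in MCF10A and 22, 55, 66 and 67 in DCIS.COM, with a log2 fold change of -0.85 in the empty-vector cells that did not pass and was -0.15 without DCIS.COM pCDH-empty 1. UQCRC1 had log2 fold changes of 0.24 (0.06 without DCIS.COM pCDH-empty 1) and 0.14, and CYC1, the cytochrome c1 heme protein, of -0.06 and 0.00, none of which passed. The remaining ATP synthase genes moved in both directions, and a split by position in the enzyme was not tested. The catalytic head genes ATP5F1A and ATP5F1B rose by 0.26 and 0.42 with the empty vector (adjusted p = 0.00502 and 0.000755, limma) and by 0.37 and 0.33 with pCDH-HOTAIR (adjusted p = 0.000666 and 0.00282, limma). ATP5F1E, the small epsilon subunit of the central stalk, had log2 CPM values of 7.25 to 7.30 in MCF10A and 6.34 to 6.74 in DCIS.COM, and fell by 0.80 and by 0.53 on the log2 scale (adjusted p = 0.000108 and 0.00121, limma). Its exons overlap those of TUBB1 on the other strand. ATP5MK, a small membrane subunit, fell by 0.58 and by 0.35 (adjusted p = 0.00193 and 0.0229, limma). ATP5IF1, which inhibits the enzyme when it runs in reverse, fell by 0.30 and by 0.24 (adjusted p = 0.0176 and 0.0464, limma). Without DCIS.COM pCDH-empty 1 the values of ATP5F1E, ATP5MK and ATP5IF1 with the empty vector were -0.65, -0.39 and -0.17, and each passed. With pCDH-HOTAIR the calls for ATP5MK and ATP5IF1 were lost without any one pCDH-HOTAIR library of either line (-0.38 to -0.32 and -0.26 to -0.22) and after length correction (-0.23 and -0.08), and that of ATP5IF1 also without either MCF10A pCDH-empty library (-0.24). With the empty vector ATP5IF1 did not pass without MCF10A pCDH-empty 1 (-0.28) or 2 (-0.33).

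The second question was whether HOTAIR overexpression changed these genes. No member passed in either line. In MCF10A, 0 of 82 members rose or fell at an adjusted p under 0.05 (limma), while 0.0218% of all genes rose and 0% fell. At an unadjusted p under 0.05 there was 1 member (1.22%), against 7.28% of all genes. limma-voom on the recovered reads also gave 0. The median log2 fold change was -0.03, against -0.0055 over all genes, and the median size of the change was 0.04 for the members and 0.09 for all genes. The 95% interval lay within 1.5-fold in either direction for 76 members. The 1 member with an unadjusted p under 0.05 was CYC1, with log2 CPM values of 6.52 and 6.52 in pCDH-empty and 6.38 and 6.27 in pCDH-HOTAIR (log2 fold change -0.20, 95% interval -0.37 to -0.02, adjusted p = 0.605, limma). Both pCDH-HOTAIR libraries lay above both pCDH-empty libraries for 10 members and below for 31, or 12.2% and 37.8% of the members, compared with 22.5% and 24.8% of all genes.

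In DCIS.COM, 0 members passed as well, by limma and by limma-voom, while 0.0871% of all genes rose and 0.00726% fell. At an unadjusted p under 0.05 there were 6 members (7.32%), 3 higher and 3 lower, against 17.5% of all genes. The median log2 fold change was 0.01, equal to that of all genes at 2 decimals, and the 95% interval lay within 1.5-fold for 74 members. Libraries did not overlap for 26 members that were higher and 15 that were lower with pCDH-HOTAIR, where the shares over all genes were 24.7% and 24.5%. The smallest unadjusted p was that of ATP5MC1, at 7.26 and 7.00 in pCDH-empty and 6.88 in both pCDH-HOTAIR libraries (log2 fold change -0.25, 95% interval -0.45 to -0.04, adjusted p = 0.254, limma). SDHB was at 6.98 and 6.70 in pCDH-empty and 6.60 and 6.63 in pCDH-HOTAIR (-0.23, 95% interval -0.45 to -0.01, adjusted p = 0.279, limma). ATP5F1E was at 6.34 and 6.64 in pCDH-empty and 6.74 and 6.73 in pCDH-HOTAIR (0.24, 95% interval 0.03 to 0.46, adjusted p = 0.264, limma). The remaining 3 were NDUFB6 (0.58, adjusted p = 0.282, limma), NDUFB1 (0.33, adjusted p = 0.281, limma) and NDUFB7 (-0.20, adjusted p = 0.282, limma), accessory subunits of complex I. Leaving out DCIS.COM pCDH-empty 1 brought the values closer to 0, to -0.12 for ATP5MC1, -0.09 for SDHB, 0.10 for ATP5F1E, 0.11 for NDUFB6, 0.10 for NDUFB1 and -0.08 for NDUFB7. For ATP5MC1, SDHB and ATP5F1E DCIS.COM pCDH-empty 1 was the library farthest from the other 3. The vector comparisons share their libraries with the line comparisons, so the values are not independent.

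**Figure D3:**
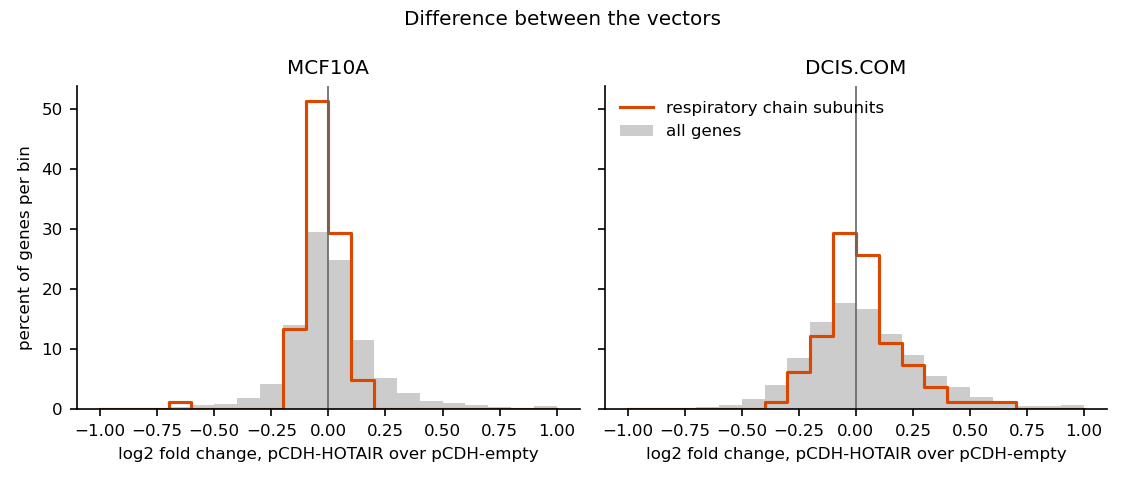
Distribution of the log2 fold change between pCDH-HOTAIR and pCDH-empty in MCF10A and DCIS.COM, as percent of genes per bin 0.1 wide, with values beyond the axis counted in the end bins. Grey bars are all 13771 genes and the line is the 82 subunit genes, which lie close around 0 in both lines.

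The difference of the HOTAIR effect between the lines passed for 0 members (limma, also 0 by limma-voom), while it passed for 0.0363% of all genes in the higher and 0.00726% in the lower direction. At an unadjusted p under 0.05 there were 3 of the 82 members (3.66%), against 1452 of the 13771 genes. The 3 were NDUFB7, NDUFC1 and NDUFA4. NDUFB7 was at 5.71 and 5.66 in MCF10A pCDH-empty and 5.80 and 5.84 in MCF10A pCDH-HOTAIR, and at 5.88 and 5.64 in DCIS.COM pCDH-empty and 5.56 and 5.54 in DCIS.COM pCDH-HOTAIR, a difference of the effects of -0.34 (95% interval -0.63 to -0.06, adjusted p = 0.435, limma). NDUFC1 differed the other way, by 0.43 (95% interval 0.06 to 0.79, adjusted p = 0.44, limma), and NDUFA4 by 0.32 (0.02 to 0.62, adjusted p = 0.46, limma). Leaving out DCIS.COM pCDH-empty 1, the differences were -0.22 for NDUFB7, 0.26 for NDUFC1 and 0.18 for NDUFA4.

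The counts of 0 in DCIS.COM depended on DCIS.COM pCDH-empty 2. Without DCIS.COM pCDH-empty 2, pCDH-empty 1 is alone in its group and is assumed to vary like the other groups. Many of all genes then passed between the vectors in DCIS.COM and for the difference between the lines, and so did members in both. Without DCIS.COM pCDH-empty 1 the counts were 0 and 0. Leaving out any other library also gave 0 for both. Across 81 members with a transcript sequence, the deviation of DCIS.COM pCDH-empty 1 from the mean of the other DCIS.COM libraries correlated with transcript GC content (Pearson r = 0.62), as it did over 13003 genes (r = 0.47). These are correlations across genes of the same library, and genes are not replicates. The members farthest below were UQCRBP1 (-1.34), NDUFB6 (-1.01), NDUFA5 (-0.88) and SDHD (-0.67), and those farthest above were COX6B2 (0.54) and ATP5F1D (0.43). In the other 3 DCIS.COM libraries the correlation was between -0.56 and -0.48, each being measured against a mean that includes pCDH-empty 1, and in MCF10A between -0.28 and 0.34. The part of base composition in the line and vector comparisons was measured with a GC correction, after which 37 members rose and 12 fell between the lines in the empty-vector cells (39.0% and 34.7% of all genes) and 0 passed between the vectors in either line. Between the vectors in DCIS.COM 86 of all genes then rose and 65 fell, where 12 and 1 had without the correction.

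**Figure D4:**
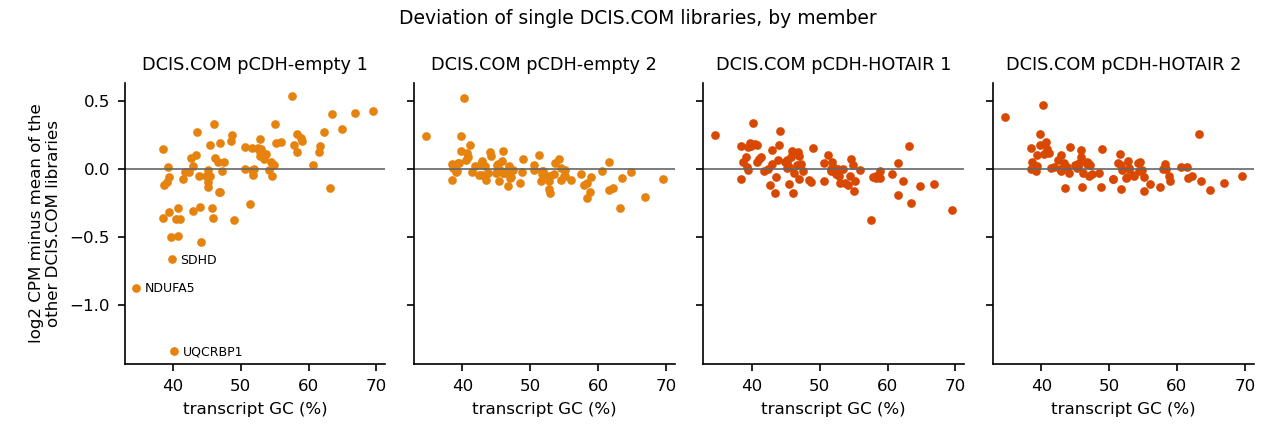
Deviation of each subunit gene from the mean of the other 3 DCIS.COM libraries (log2 CPM) against the GC content of its transcript (percent), for each DCIS.COM library, 81 genes with a transcript sequence. In pCDH-empty 1 most genes of low GC content lie below 0 and most genes of high GC content above it.

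The 13 subunits encoded by mitochondrial DNA were all in the table, and their reads cannot be told apart from those of near-identical copies in the nuclear genome. In the empty-vector cells 6 of 13 rose in DCIS.COM and none fell, and in the pCDH-HOTAIR cells 3 rose and none fell, where 33.8% and 32.8% of all genes rose. All 6 encode complex I subunits, ND1, ND2, ND4, ND4L, ND5 and ND6. The reads of ND1 numbered 172, 89, 96 and 103 in MCF10A (both pCDH-empty libraries first) and 491, 264, 415 and 330 in DCIS.COM. ND1 rose by 1.55 on the log2 scale with the empty vector (adjusted p = 0.00146, limma) and by 1.07 with pCDH-HOTAIR (adjusted p = 0.00999, limma). The complex IV genes COX1, COX2 and COX3 had log2 fold changes of 0.45, 0.23 and -0.28 with the empty vector and did not pass. MCF10A pCDH-empty 2 was lower than the other MCF10A libraries for each of the 13 genes, and they took 0.0582% of its reads against 0.105% to 0.112% in the other MCF10A libraries. Without this library, a setting chosen after seeing the data, 4 of the 13 rose in the empty-vector cells (ND1, ND2, ND4 and ND4L), and COX3 fell by 0.77 on the log2 scale (adjusted p = 0.00995, limma). In the empty-vector cells 4 rose and none fell without DCIS.COM pCDH-empty 1, ND5 and ND6 no longer passing, and COX1 was at 0.17. The pCDH-HOTAIR fold changes do not use either library, and ND1, ND2 and ND4L passed there. Both libraries did enter the shared spread behind those p-values. With pCDH-HOTAIR over pCDH-empty, 0 of the 13 passed in MCF10A or in DCIS.COM (limma), with 2 and 0 at an unadjusted p under 0.05, against 7.28% and 17.5% of all genes.

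**Figure D5:**
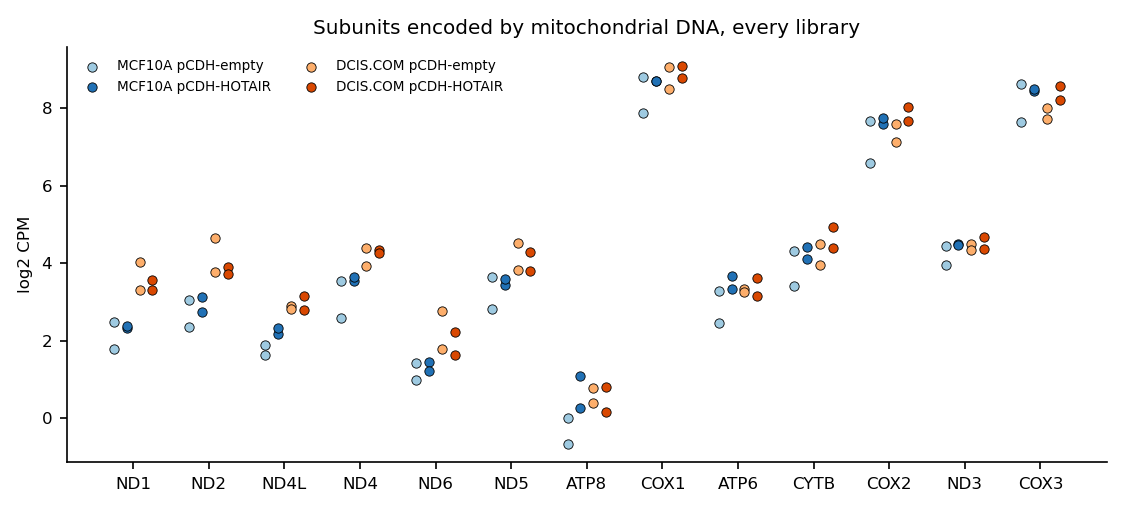
Log2 CPM of the 13 subunits encoded by mitochondrial DNA in every library, ordered by the difference between the lines in the empty-vector cells. ND1, ND2, ND4, ND4L, ND5 and ND6 lie higher in each DCIS.COM library than in any MCF10A library, while the MCF10A and DCIS.COM values of COX1, COX2 and COX3 overlap.

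Genes that regulate the program did not move together. Of 15 regulators in the table, 8 rose and 2 fell between the lines with the empty vector, and 6 rose and 2 fell with pCDH-HOTAIR. Of all genes 33.8% rose and 34.4% fell in the former comparison, and 32.8% and 32.7% in the latter. PPARGC1A had 15, 8, 11 and 7 reads in MCF10A and 705, 635, 735 and 784 in DCIS.COM, with no overlap, and log2 fold changes of 5.70 and 5.41 (adjusted p = 3.53e-07 and 4.81e-07, limma). The related coactivator PPARGC1B rose by 0.92 and 0.63 (adjusted p = 0.00085 and 0.00648, limma). The gene for NRF1 rose by 0.45 and 0.28 (adjusted p = 0.00487 and 0.0444, limma), and TFB1M, which methylates mitochondrial ribosomal RNA, by 0.70 and 0.92 (adjusted p = 0.000198 and 4.13e-05, limma). ESRRA, which encodes an estrogen-related receptor, fell by 0.60 and by 0.38 on the log2 scale (adjusted p = 0.00287 and 0.0259, limma), and MYC fell by 0.88 and by 1.38 (adjusted p = 0.000149 and 1.03e-05, limma). GABPA and TFAM were at 4.50 and 5.32 in DCIS.COM pCDH-empty 1 and at 5.21 to 5.29 and 5.94 to 6.09 in the remaining DCIS.COM libraries, and neither passed, with log2 fold changes of -0.51 and -0.16 with the empty vector and of -0.10 and 0.26 with pCDH-HOTAIR. Without that library the log2 fold change of GABPA with the empty vector was -0.11, and that of TFAM, which packages mitochondrial DNA, was 0.23. The median over the regulators was then 0.28, against 0.01 over all genes.

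Of 50 assembly factors for these complexes, 15 rose and 10 fell with the empty vector, with a median log2 fold change of 0.11, and 20 rose and 2 fell with pCDH-HOTAIR, with a median of 0.17. Of all genes 33.8% rose and 34.4% fell with the empty vector, and 32.8% and 32.7% with pCDH-HOTAIR. ATPAF2, an assembly factor of the ATP synthase head, rose by 1.29 and 1.21 (adjusted p = 5.61e-05 and 8.76e-05, limma), and COX17, a copper chaperone for complex IV, by 0.83 and 1.02 (adjusted p = 0.000258 and 7.74e-05, limma). The SDHB assembly factor SDHAF1 rose by 0.58 and 0.76 (adjusted p = 0.000964 and 0.000218, limma), and SDHAF2, which acts on SDHA, had log2 fold changes of 0.03 and 0.13 that did not pass. TMEM126B, an assembly factor of complex I, fell by 1.02 with the empty vector (adjusted p = 0.00108, limma), where its log2 CPM was 3.61 in DCIS.COM pCDH-empty 1 and 4.22 in pCDH-empty 2, and had -0.45 with pCDH-HOTAIR (adjusted p = 0.0525, limma). TMEM126B fell by 0.72 on the log2 scale without DCIS.COM pCDH-empty 1. The median over the assembly factors was then 0.11 with the empty vector, against 0.01 over all genes. Of 78 mitochondrial ribosomal protein genes, 48 rose and 6 fell with the empty vector and 41 rose and 5 fell with pCDH-HOTAIR, with medians of 0.34 and 0.27. The former median was 0.26 without DCIS.COM pCDH-empty 1. Of the regulators, assembly factors and ribosomal proteins, 0 passed between the vectors in either line (limma). The numbers at an unadjusted p under 0.05 were 0, 0 and 1 in MCF10A and 4, 3 and 10 in DCIS.COM, where 7.28% and 17.5% of all genes reached it.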

How the data were processed

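RNA from 8 samples in 4 groups was read as paired ends of ScriptSeq libraries. The authors aligned reads to hg19 with Rsubread, counted them with featureCounts on UCSC known genes, and deposited log2 CPM values normalized with edgeR. All 13771 genes had a CPM over 0.5 in at least 2 libraries. Whether counting used strand was not stated, and 45 of the 82 members share exon positions with another gene.

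Whole reads were recovered from the log2 CPM (100% of values whole within 0.1 read) and used for depth, RPKM and limma-voom. The deposited values were fitted with limma 3.58.1 in R 4.3.3 (4 group means, moderated with a mean-variance trend, all 8 libraries), adjusted by Benjamini-Hochberg over all genes. With 2 libraries against 2, an exact permutation test cannot go below 0.333. Values and errors printed with ± are log2 fold changes and standard errors. The fit was tested on simulated libraries. A first simulation scaled by library totals gave too many false calls because 1 very abundant gene was among those changed, and scaling by median ratios, chosen after that, passed the same criterion. Deviations of same-numbered libraries had r from -0.016 to 0.066 over all genes. Over the members r was 0.78 between the MCF10A groups (0.44 without NDUFA4L2) and -0.036 to 0.011 in the other pairs of groups. No pairing was stated, and the main fit did not take the numbers as pairs. Whether the MCF10A libraries were paired was not tested.

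Lengths, GC content and positions came from GENCODE on GRCh37 (81 members), and promoter sequences from RefSeq. Other gene lists held regulators, assembly factors, mitochondrially encoded subunits and mitochondrial ribosomal proteins. Named members were the 5 highest and 5 lowest log2 fold changes among those that passed in each comparison, or the 5 smallest p-values where fewer than 5 passed, the highest and lowest per length in each complex, and a list of core subunits and paralogs. Genes named for their place in 1 aberrant library, and the named assembly factors, were chosen after their values were seen. The members and lists were chosen with earlier results of these data known. Alternatives were 2 other scalings, length and GC correction (loess, span 0.4), priors of 0.1 and 1 CPM, a mean CPM of at least 2, no trend, limma-voom, separate fits, a replicate block and leaving out each library. The vector values and other gene lists without DCIS.COM pCDH-empty 1, and the mitochondrially encoded subunits without MCF10A pCDH-empty 2, were added after seeing the data. The values of 1 core subunit gene of complex I are not reported here.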

Additional observations from a re-analysis of the deposited data

How the results depend on the processing

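The counts of members that passed between the lines changed most with a fold threshold and with fewer libraries. Requiring 1.5-fold left 9 members with the empty vector and 8 with pCDH-HOTAIR, where 46.3% and 43.7% of all genes were left. Fitting only the 2 groups compared gave 25 with the empty vector and 62 with pCDH-HOTAIR. With the empty vector 24.4% of members then rose and 6.1% fell, against 28.8% and 29.1% of all genes. With pCDH-HOTAIR these were 58.5% and 17.1%, against 38.7% and 38.3%. The replicate block within cell line, for numbers that share no stated pairing, gave 32 with the empty vector and 30 with pCDH-HOTAIR. Without it 41 and 50 passed. In the block 24 members rose and 8 fell with the empty vector, against 4071 and 4283 of all genes. With pCDH-HOTAIR 26 rose and 4 fell, against 3795 and 3904. When 1 library was left out, more of all genes passed where more members did, and fewer where fewer did, compared with all libraries. The counts of members that follow therefore do not describe a change of the members alone. Leaving out 1 library at a time gave 28 to 60 with the empty vector and 26 to 62 with pCDH-HOTAIR, where the counts were 28 without MCF10A pCDH-HOTAIR 1, 33 without MCF10A pCDH-HOTAIR 2, 26 without DCIS.COM pCDH-HOTAIR 1 and 29 without DCIS.COM pCDH-HOTAIR 2. Between the vectors 0 members passed in MCF10A whichever library was left out. In DCIS.COM, and for the difference between the lines, members passed only without DCIS.COM pCDH-empty 2. Every other setting gave 0 for these, the replicate block included. The log2 fold change of SDHD with the empty vector ran from -0.50 without DCIS.COM pCDH-empty 2 to 0.18 without DCIS.COM pCDH-empty 1, against -0.16 with both. The median of the members between the lines stayed above 0 in all 19 alternatives, from 0.10 to 0.25 with the empty vector and from 0.17 to 0.29 with pCDH-HOTAIR. SDHB, ATP5MC1, COX5A, COX6B1 and NDUFA4L2 passed in both vectors in each of these 19, and COX6B2 in the 18 that kept it. ATP5F1A with the empty vector, at an adjusted p of 0.00502 (limma), lost its call when those groups were fitted alone and with the replicate block (adjusted p = 0.0588 and 0.0696, limma). Few reads stood behind NDUFA4L2, COX6B2 and UQCRBP1 in MCF10A, at 2 to 70.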
